A study of Ovis aries with 2 samples.

Results

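miR-31, miR-205 and miR-34c are miRNAs known from lining and ciliated epithelia. They were taken from the mature miRNA table of extracellular vesicles in uterine luminal fluid (ULF) as the rows with the precursor names mir-31, mir-205 and mir-34c, which gave 3 of the 81 mature miRNAs listed. Vesicles were precipitated with ExoQuick-TC from ULF flushed at day 14 (day 0 being estrus) from mature Rambouillet ewes (Ovis aries) that were either cyclic or pregnant after mating to an intact ram, with no treatment named for either group. RNA of 4 ewes was pooled into 1 small RNA library per status and read with the Ion Torrent platform. The study asked whether ULF holds such vesicles and which RNAs, miRNAs among them, and proteins they carry, and it sampled ewes of either status. With 1 pooled library per status there is no replicate, so each difference below compares a pair of libraries and its interval covers counting error only. ULF of pregnant ewes was flushed from a uterus that held a conceptus, so vesicles of endometrial and of conceptus origin cannot be told apart.

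A miRNA guides a repressor complex to messenger RNAs that pair with its seed, which is bases 2 to 8 from the 5′ end, so that miRNAs with different seeds repress largely different genes. miR-31 is abundant in skin and other lining epithelia of mouse and human. miR-205 is typical of stratified and basal epithelia and, together with the miR-200 family, represses ZEB1 and ZEB2, the transcription factors that drive epithelial cells toward a mesenchymal state. miR-34c belongs with miR-34b and the miR-449 group to a seed family that multiciliated cells need in order to form cilia, as shown in mouse and frog, and it is also abundant in male germ cells of mouse. The sheep endometrium is lined by a luminal epithelium that continues into glands, and both secrete into the lumen.

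The mature sequences of the 3 miRNAs are shown because the seed fixes which genes each can repress and because the reads were counted by their match to these sequences. They are the cattle reference sequences as the deposited table gives them, in DNA letters with T for U, 5′ to 3′, with the seed in capitals.
miR-31: aGGCAAGAtgctggcatagct
miR-205: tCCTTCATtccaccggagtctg
miR-34c: aGGCAGTGtagttagctgattg
The seeds differ between the 3 miRNAs, and no other listed miRNA had any of these seeds, whereas 47 of the 81 listed sequences (58.0%) shared a seed with another. miR-31 and miR-34c begin with the same 5 bases, aggca, and they alone of the 81 sequences do so. Of the 7 seed positions 4 were therefore identical in miR-31 and miR-34c, and 9 of 21 positions over the whole length. miR-205 had no seed position in common with either, and matched miR-31 at 4 of 21 and miR-34c at 5 of 22 positions. The sequence of miR-31 has 21 bases and the other two have 22, which was the median of all listed sequences (range 19 to 25). G and C made up 52.4% of miR-31, 54.5% of miR-205 and 45.5% of miR-34c, against a median of 45.5% over all 81.

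The pregnant library held 119605 reads, of which 3.14% matched a cattle miRNA, and the cyclic library 94735 reads, of which 10.8% matched. Listed mature miRNAs took 2809 counts in the pregnant library, over 54 miRNAs, and 7921 in the cyclic library, over 80. The authors' workflow kept a miRNA at 10 or more copies, so one listed at 0 can have up to 9. Of 14 miRNAs set down as epithelial markers 8 were listed, with 14.5% of the mature miRNA counts for pregnant and 16.2% for cyclic ewes. Markers of stroma, smooth muscle and vessels took 1.85% and 1.89%, and those of leukocytes 1.46% and 1.75%. Each marker listed at 0 in the pregnant library was also set at 9 copies. The pregnant shares of the epithelial, stromal and leukocyte markers would then be 15.5%, 2.81% and 1.78%. For stroma and leukocytes the order of the libraries is therefore not settled. The epithelial share stayed lower for pregnant ewes, but its order is not settled either. With these markers left at 0, its intervals for counting error overlapped (pregnant 13.2 to 15.9%, cyclic 15.4 to 17.0%). miR-451, which marks red blood cells, took 0.427% and 0.896%. miR-451 and the leukocyte miRNA miR-223 were the 2 of 81 miRNAs called lower for pregnant ewes by the rule given with the comparison, with ratios of 0.477 (0.235 to 0.885) and at most 0.453 (0.197 to 0.923), whereas the leukocyte miRNA miR-342 had 1.39 (0.934 to 2.05). The liver miRNA miR-122 was not listed. Epithelial markers were thus the most abundant of these groups, but their list was the longest and includes miR-31, miR-205 and miR-34c. The stromal list had 8 markers (4 listed), the leukocyte list 5 (2 listed) and the red blood cell list 3 (1 listed). Within the epithelial list the miR-200 family alone held 10.9% for pregnant and 13.0% for cyclic ewes. These miRNAs are also not made by 1 cell type alone. In vesicle RNA, fewer vesicles of a cell type and fewer copies per vesicle cannot be told apart.

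miR-31 was the most abundant of the 3 in both libraries, followed by miR-205 and then miR-34c. miR-31 had 75 counts in the pregnant library, 2.67% of the mature miRNA counts (exact Clopper-Pearson 95% interval 2.11 to 3.34%), and 171 counts for cyclic ewes, 2.16% (1.85 to 2.50%). It ranked 11 of the 54 miRNAs listed for pregnant and 14 of the 80 listed for cyclic ewes. miR-205 had 26 counts, 0.926% (0.605 to 1.35%), and 51 counts, 0.644% (0.480 to 0.846%). It ranked 35 of the 54 and 37 of the 80. The same minimum of copies was applied to 2809 mature miRNA counts for pregnant and 7921 for cyclic ewes. The lists differ in length, so ranks are not compared between them. miR-34c was listed in the cyclic library only, with 31 counts, 0.391% (0.266 to 0.555%), at rank 46. In the pregnant library it had at most 9 copies, 0.320% of the mature miRNA counts. The 3 miRNAs together held 253 counts in the cyclic library, 3.19% (2.82 to 3.61%). In the pregnant library miR-31 and miR-205 held 101, 3.60% (2.94 to 4.35%), and with miR-34c at 9 copies the share would be 3.92%.

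**Figure D1:**
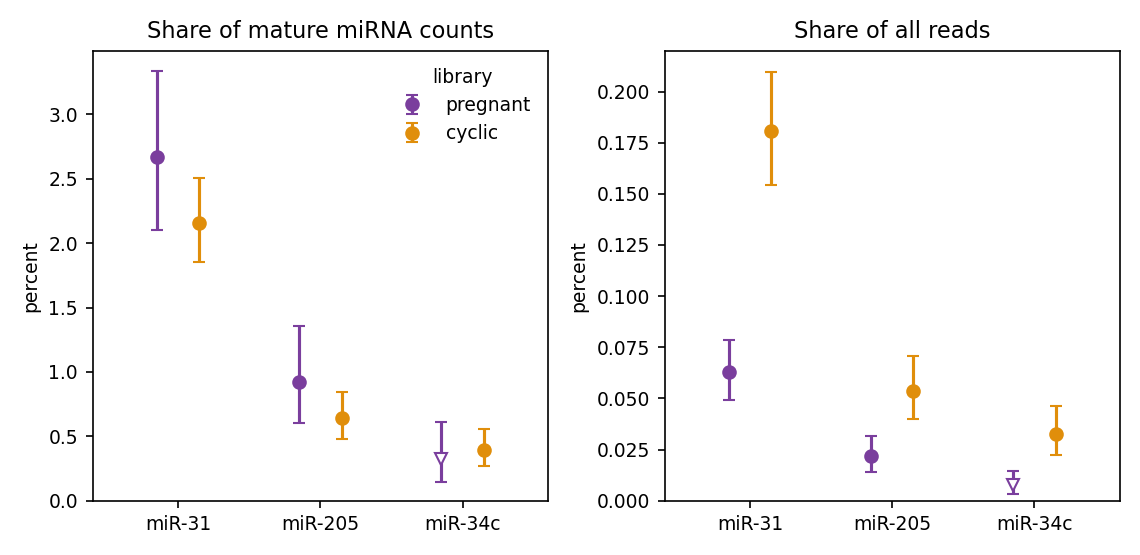
Share of miR-31, miR-205 and miR-34c in percent of the mature miRNA counts (left) and of all reads (right), in the pregnant and the cyclic library, with exact 95% intervals for counting error. The open triangle is miR-34c at 9 copies, the most that its listed 0 can hide. On the left the intervals of the libraries overlap for each miRNA, and on the right the cyclic library lies higher for all 3.

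Neighbours in the order of counts did not differ beyond counting error. In the pregnant library miR-31 stood between miR-191 with 100 counts and miR-200a and miR-30d with 73 each. In the cyclic library it stood between miR-10a with 174 and miR-191 and miR-29a with 167 each, and in either library 11 other miRNAs could not be told from it. miR-205 lay between miR-27a with 27 and miR-29b with 25 counts in the pregnant library. In the cyclic library it shared 51 counts with miR-361, between let-7e with 53 and miR-103 with 49. For miR-205 the order was looser, with 23 other miRNAs for pregnant and 13 for cyclic ewes whose ratio to it had an interval that included 1. miR-34c shared its 31 cyclic counts with miR-23b and with one of the miR-423 sequences, and could not be told from 24 other miRNAs. At this cyclic count a miRNA could be listed in the pregnant library, since miR-23b had 33 and that miR-423 sequence 15 counts there.

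The comparison of pregnant with cyclic ewes was made as the ratio of the shares of mature miRNA counts, with an exact conditional binomial 95% interval. Calls of higher or lower needed an interval that did not include 1 and a difference of at least 2-fold. None of the 3 miRNAs was called, where 6.17% of the 81 listed miRNAs were called higher and 2.47% lower. With 3 miRNAs, a count of 0 is near this background. miR-31 had a ratio of 1.24 (0.930 to 1.63) and miR-205 of 1.44 (0.860 to 2.35) (pregnant over cyclic), and both intervals included 1. On the log2 scale these ratios were 0.31 and 0.52, against a median of 0.22 over the 53 miRNAs listed in both libraries. Relative to that median the log2 ratios were 0.08 for miR-31 and 0.30 for miR-205. By ratio miR-31 ranked 21 and miR-205 ranked 12 of the 53, counted from the highest. Nearest to miR-31 in log2 ratio were miR-378 (1.23), miR-339a (1.25) and miR-185 (1.21), given as ratios. Nearest to miR-205 were miR-107 (1.41), miR-342 (1.39) and miR-151 (1.37), again as ratios over 1 library each.

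**Figure D2:**
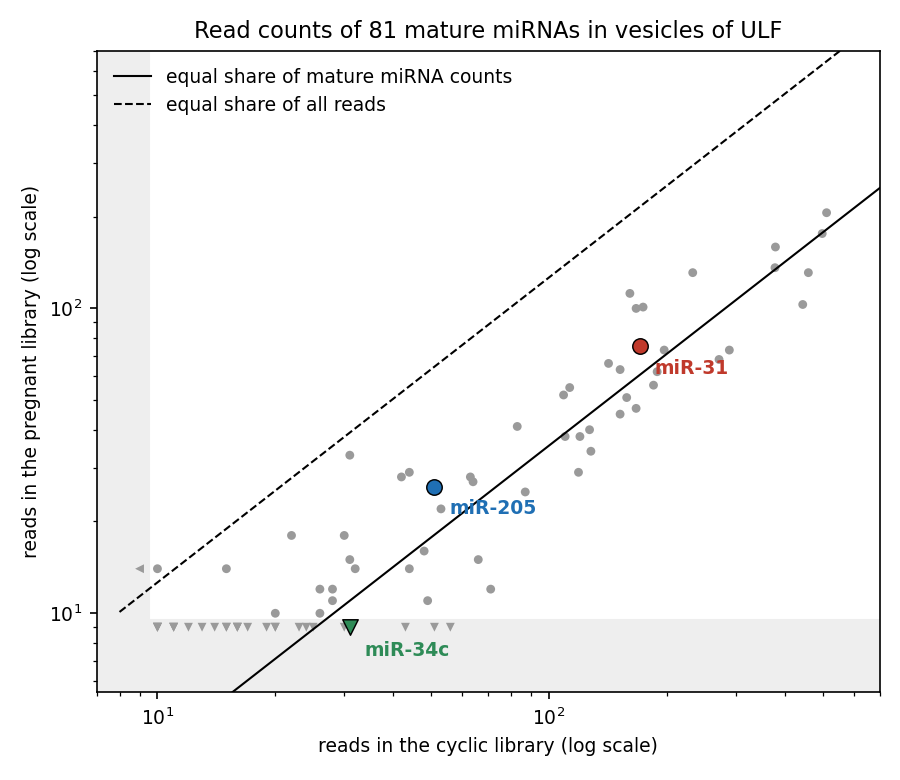
Reads of each of the 81 mature miRNAs in the cyclic library (x axis) and the pregnant library (y axis), both on a log scale. Points are miRNAs, triangles are miRNAs listed at 0 in 1 library and drawn at 9 copies inside the grey zone, and the lines mark equal shares of mature miRNA counts (solid) and of all reads (dashed). miR-31 (75 and 171 counts) and miR-205 (26 and 51) lie above the solid and under the dashed line, and miR-34c stands in the grey zone at 31 cyclic counts.

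For miR-34c the ratio was at most 0.819, and at this bound its interval ran from 0.343 to 1.76, so no direction could be given relative to mature miRNA counts. At an equal share the pregnant library would have held 11.0 copies of miR-34c, just over the 10 that a listing needs. A call of lower from a listed 0 needed at least 52 cyclic counts, which miR-34c did not have. Of the 27 miRNAs listed for cyclic ewes only, which had 10 to 56 counts with a median of 16, miR-34c was the fourth most abundant. The cyclic-only miRNAs nearest to it in count were miR-15b with 30, let-7d with 25 and miR-19a with 24. Of its seed family of 7 listed for ciliated epithelium (miR-34a, miR-34b, miR-34c and miR-449a to miR-449d) no other member was listed for either library, so miR-34c alone stood for that family in the table.

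The number of mature miRNA counts also limited what could be called for miR-31 and miR-205. At its 171 cyclic counts, miR-31 would have been called higher from 122 and lower at 30 or fewer pregnant counts, where 75 were found and 60.6 would be an equal share. miR-205, at 51 cyclic counts, needed 37 pregnant counts to be called higher, where 26 were found and 18.1 would be an equal share. No pregnant count could have called miR-205 lower, since its cyclic counts fell short of the 52 that a listed 0 needs.

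Of the 6 totals tried, only division by all reads put the ratios of miR-31 and miR-205 below 1, and miR-34c, which had no direction before, was called lower there. Relative to all reads of the library miR-31 had a share of 0.0627% for pregnant and 0.181% for cyclic ewes, which gives a ratio of 0.347 (0.261 to 0.458). For miR-205 the share of all reads was 0.0217% and 0.0538%, with a ratio of 0.404 (0.242 to 0.660). miR-34c had 0.0327% of all reads for cyclic and at most 0.00752% for pregnant ewes, so that its ratio was at most 0.230 (0.0963 to 0.495 at this bound). All 3 were therefore called lower on this scale, but so were 71.6% of the 81 listed miRNAs, and the median ratio of the 53 miRNAs in both libraries was 0.328. miR-31 and miR-205 lay near that median. The change of scale moves every log2 ratio by -1.83, and moves along with the share of reads that matched a miRNA at all, 3.14% against 10.8%. With annotated reads as the total, which leaves that share out, every log2 ratio moved by -0.0466. Why that share differs between the libraries was not tested. With edgeR's TMM the ratios were 1.11 for miR-31, 1.29 for miR-205 and at most 0.735 for miR-34c. DESeq2's size factors gave 1.06 for miR-31, 1.23 for miR-205 and at most 0.700 for miR-34c, and under both all 3 intervals included 1.

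**Figure D3:**
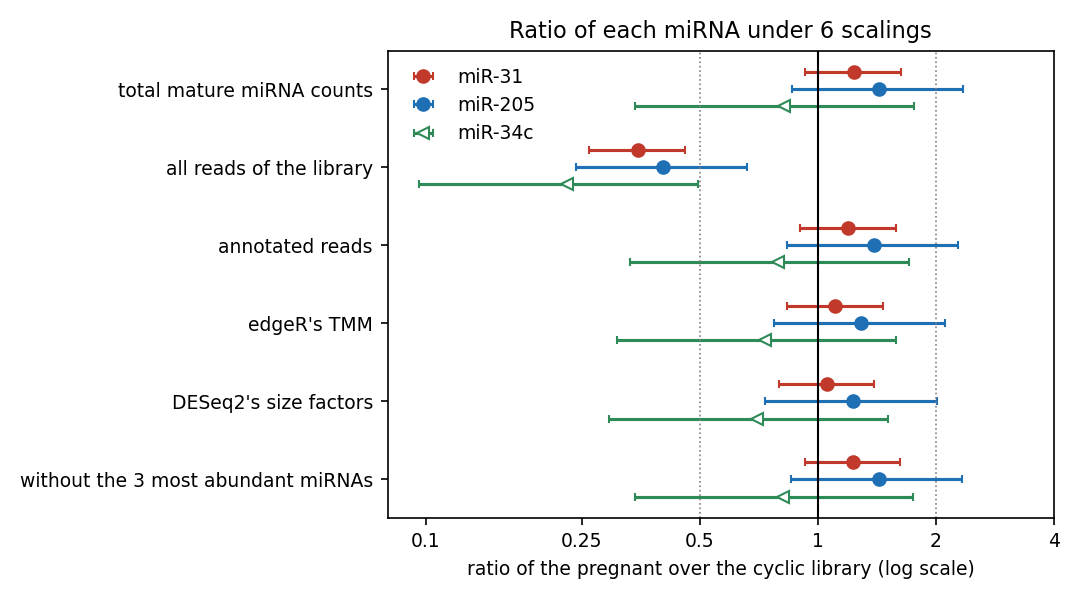
Ratio of pregnant over cyclic (log scale) for miR-31, miR-205 and miR-34c under 6 totals, with exact 95% intervals for counting error. Open triangles are upper bounds for miR-34c, the solid line marks a ratio of 1 and the dotted lines a 2-fold difference. All intervals include 1 except those for all reads of the library, where the ratios are 0.347, 0.404 and at most 0.230.

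Ratios of one miRNA to another within a library do not depend on the total. miR-31 exceeded miR-205 by 2.88-fold for pregnant ewes (95% interval 1.82 to 4.70) and 3.35-fold for cyclic ewes (2.44 to 4.68). The quotient of these ratios was 0.860 (0.484 to 1.55), so no difference in the balance of miR-31 and miR-205 was detectable, within limits of 0.484 and 1.55. miR-31 exceeded miR-34c by 5.52-fold in the cyclic library (3.75 to 8.37) and by at least 8.33-fold in the pregnant library (4.16 to 18.9 at the bound). miR-205 exceeded miR-34c by 1.65-fold in the cyclic library (1.03 to 2.66) and by at least 2.89-fold in the pregnant library (1.31 to 7.01 at the bound). The quotients of these ratios between the libraries were at least 1.51 (0.660 to 3.79 at the bound) for miR-31 and at least 1.76 (0.682 to 4.81) for miR-205, and both intervals included 1. Ligation captures some small RNA sequences better than others, so these are ratios of reads and not of molecules.

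Set beside the miR-200 family, the other epithelial miRNAs here and the partners of miR-205 in repressing ZEB1 and ZEB2, miR-31 and miR-205 were more abundant for pregnant than for cyclic ewes relative to miR-200a and miR-200b, while relative to miR-200c no difference was detectable. miR-200c had 131 counts for pregnant and 233 for cyclic ewes, miR-200a 73 and 289, and miR-200b 103 and 445. As shares of mature miRNA counts, the ratios were 0.712 (0.543 to 0.924) for miR-200a and 0.653 (0.522 to 0.810) for miR-200b. For miR-200c the ratio was 1.59 (1.27 to 1.97). These intervals did not include 1, while those of miR-31 and miR-205 did. miR-141 (0 and 43 counts) and miR-429 (0 and 20) were left out of the quotients and the sum. The ratio of miR-31 to miR-200b was 0.728 for pregnant and 0.384 for cyclic ewes, a quotient of 1.89 (1.32 to 2.71). Against miR-200a the quotient was 1.74 (1.17 to 2.57), and against miR-200c 0.780 (0.543 to 1.12). miR-205 gave quotients of 2.20 (1.25 to 3.79) against miR-200b, 2.02 (1.13 to 3.55) against miR-200a and 0.907 (0.517 to 1.56) against miR-200c. Against the sum of the 3 family members the quotient was 1.38 (1.01 to 1.88) for miR-31 and 1.61 (0.943 to 2.67) for miR-205. These 8 quotients share their counts and are not adjusted for their number. The median ratio of the 53 miRNAs listed in both libraries was 1.17, also above those of miR-200a (0.712) and miR-200b (0.653). A miRNA at that median would likewise be higher for pregnant ewes relative to miR-200a and miR-200b. The difference is therefore not particular to miR-31 and miR-205. None of the 5 listed miRNAs of the miR-200 family was called, and of 8 further miRNAs of epithelia, set down as a separate list (miR-203, miR-375, miR-183, miR-96, miR-182, miR-192, miR-194 and miR-215), none was listed in either library.

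All reads of miR-31, miR-205 and miR-34c were assigned to 1 precursor only, so no count was shared with a copy or a relative. The match to the reference differed between them. None of the 75 pregnant and 171 cyclic reads of miR-31 was an exact match over the whole mature sequence, which allows a share of up to 4.80% and 2.13%. None of the 31 cyclic reads of miR-34c was exact either, which allows up to 11.2%. Of the miR-205 reads 5 of 26 were exact for pregnant ewes, 19.2% (6.55 to 39.4%), and 12 of 51 for cyclic ewes, 23.5% (12.8 to 37.5%). Over all other listed miRNAs the exact share was 11.2% and 9.96%. Including the members, 41 of 54 miRNAs for pregnant and 57 of 80 for cyclic ewes had no exact read. The counts of miR-31 and miR-34c therefore rest on length variants and on reads with mismatches. The annotation reports classed 2078 pregnant and 5502 cyclic reads as mature 5′, fewer than the 2809 and 7921 counts of listed miRNAs. Of the reads so classed, 74.0% and 74.3% were sequence variants, 19.9% and 20.3% length variants and 6.06% and 5.40% exact. They held 126 and 297 exact reads, against 308 and 776 among the listed miRNAs, so their exact shares are not comparable with those above. Perfect matches made up 1275 of the 3752 annotated reads for pregnant and 3862 of 10244 for cyclic ewes. When exact reads alone were counted, miR-205 had a ratio of 1.05 (0.290 to 3.20), and no value could be had for the other two.

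Exact matches went largely with the last base of the reference sequence, with exceptions such as miR-29a and miR-92a, and this base is shown in capitals for 3 epithelial miRNAs that are otherwise much alike.
miR-200c: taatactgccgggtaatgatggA
miR-200a: taacactgtctggtaacgatgtT
miR-200b: taatactgcctggtaatgatG
miR-200c, which ends in A, had 92 exact reads of 131 for pregnant and 159 of 233 for cyclic ewes, whereas miR-200a, ending in T, and miR-200b, ending in G, had none of 73 and 103 or of 289 and 445. Over all listed miRNAs that end in A, 50.7% of pregnant and 43.8% of cyclic reads were exact, and 9 of 10 and 16 of 18 such miRNAs had an exact read. miR-29a, which also ends in A, had none of 47 and none of 167. For those that end in T, as miR-31 does, the share was 0.691% and 0.215%, and 1 of 25 and 2 of 35 had any, among them miR-92a with 71.4% and 53.3% of 14 and 15 reads. Those that end in C had 2.01% and 13.8%, with an exact read in 1 of 7 and 3 of 9. These values cover unlike sets, since miR-361 (30 exact of 51) and miR-339b (11 of 19) were listed for cyclic ewes only. The third, miR-27b, had 4 of 29 for pregnant and 37 of 119 for cyclic ewes. miR-205 and miR-34c end in G, a class with 5.78% and 2.75% exact reads in which miR-205 and miR-191 alone had any, miR-191 with 33.0% and 21.0%. miR-31 and miR-34c were thus like most miRNAs with their last base, and miR-205 was not. This pattern was noticed after the counts were seen, is a description across miRNAs of the same libraries, and its cause was not tested.

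**Figure D4:**
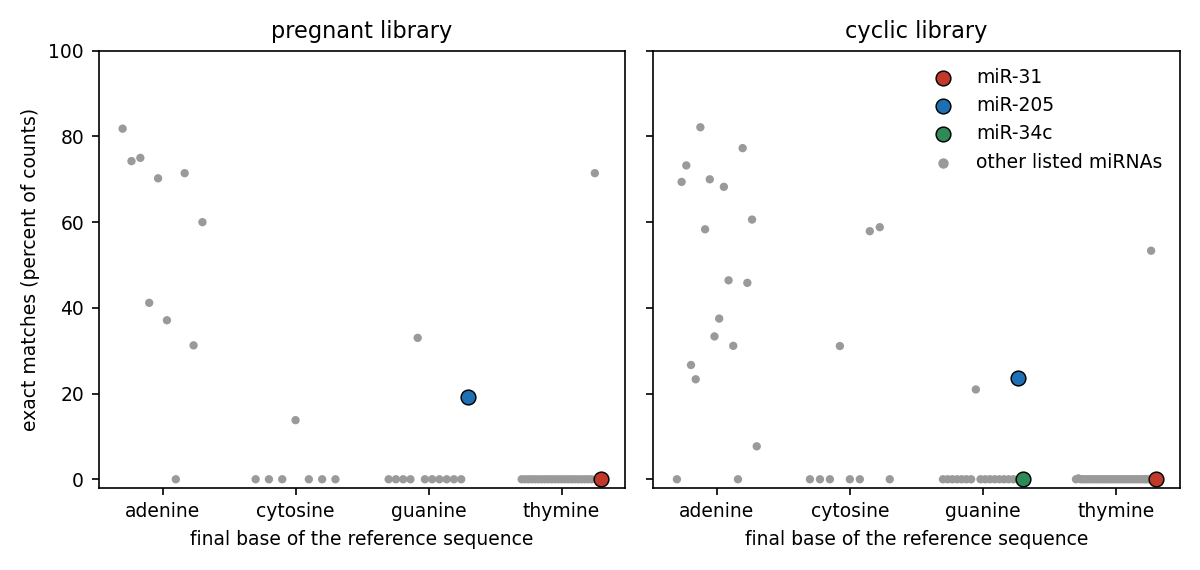
Exact matches in percent of the counts of each listed miRNA (y axis), grouped by the last base of its reference sequence (x axis), in the pregnant (left) and cyclic (right) library. Each point is 1 miRNA. miR-205 lies at 19.2% and 23.5% among miRNAs ending in guanine, miR-34c at 0 beside it in the cyclic library, and miR-31 at 0 among those ending in thymine.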

How the data were processed

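Small RNA was sequenced in 1 pregnant and 1 cyclic library, each from ULF vesicle RNA of 4 ewes. With the CLC Genomics Workbench (version not given in the sources used here) the authors matched reads of 15 to 55 bp, with mismatches allowed, to the Bos taurus entries of miRBase release 19 and kept mature miRNAs with 10 or more copies after grouping. The deposited tables give read counts per mature miRNA, not normalized, with exact matches and reads assigned to 1 precursor. The deposited annotation reports give other numbers, such as all reads of the library. Columns with the authors' fold changes and ranges were not used, and 6 columns of a further library, which none of the sample labels covers, were not analysed here.

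Shares, ratios and intervals were computed with Python 3.11.15 and SciPy 1.17.1, and figures drawn with matplotlib 3.10.9. A listed 0 entered ratios as 9 copies, the most it can hide. No test between conditions was possible with 1 library each, and the ratio was tested on simulated data. At a total of 2809 and 7921 counts, precision is limited by counting. Alternatives were totals of all reads, of annotated reads, edgeR's TMM (4.0.16), DESeq2's size factors (1.42.0, in R 4.3.3), totals without the 3 most abundant miRNAs, exact or single-precursor reads, the second table, grouping by name and minimums of 20 and 50 copies. The members, lists and tests were chosen with earlier results of these data known, and the ratios within a library and the grouping by last base were added after the data were examined. Other miRNAs named are those nearest in ratio or count, neighbours in order, listed members of the lists and, outside this rule, miR-23b and miR-423, tied with miR-34c. Also outside it are miR-27b, miR-92a and miR-339b, named for their exact matches. The 106 miRNA genes of the sheep assembly ARS-UI_Ramb_v3.0 matched 0 of the 3 members, so no positions are given.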

Additional observations from a re-analysis of the deposited data

How the results depend on the processing

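The ratios of miR-31 and miR-205 stayed above 1, that of miR-34c stayed an upper bound with no direction, and all 3 were uncalled with annotated reads, edgeR's TMM, DESeq2's size factors, totals without the 3 most abundant miRNAs, single-precursor reads, the second table and grouping by name, as was miR-205 with exact reads. Relative to all reads of the library the ratios of miR-31 (0.347) and miR-205 (0.404) turned below 1, that of miR-34c (at most 0.230) was called, and the number called went from 0 to 3. The construction of that setting, another total, moves all listed miRNAs alike. With a minimum of 50 copies 1 of the 3 was listed in the pregnant library in place of 2, and 2 in the cyclic library in place of 3. Exact reads could give no ratio for miR-31 and miR-34c, which had none in the pregnant library. No replicate could be left out.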
